A study of Mus musculus with 6 samples.

Results

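The genes described here encode the subunits of the transcription factor NF-kB and the proteins that NF-kB induces to hold itself in check. They were Nfkb1, Nfkb2, Rel, Rela and Relb, which encode subunits, and Nfkbia, Nfkbie, Nfkbiz, Bcl3 and Tnfaip3, which encode inhibitors and modulators. The 10 genes were chosen by name and role, with no threshold on a measured value. Each gene was read by the probe set that carries its symbol alone in the platform annotation and has the highest mean intensity over the 6 arrays. Of the 10, 9 had such a probe set among the 18193 genes so named. Nfkb1 was not analysed here. Of those 9, 8 passed the intensity filter that left 12734 genes for testing, and Rel did not.

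RNA came from kidneys of male FVB/N mice aged 6 to 8 weeks and weighing 22 to 26 g, and the protocol, given alike for all samples, was anesthesia and a flank incision. The artery and vein stalk of 1 kidney was clamped for 0, 45 or 60 min and then released, which interrupts and restores its blood flow (ischemia-reperfusion injury). Kidneys were taken at day 1 or day 3 after release, and each of the 6 combinations of clamp time and day was read on 1 Affymetrix array. The series concerns blockade of the cytokine TNF after this injury, and kidneys given such a blockade are not analysed here. The 0 min kidneys are the unclamped reference, listed in that protocol as a clamp time of 0.

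NF-kB proteins bind DNA as pairs of subunits. In resting cells inhibitors of the IkB family keep these pairs in the cytoplasm, and signals from TNF, interleukin and Toll-like receptors lead IkB kinases to mark the inhibitors for destruction, so that NF-kB enters the nucleus. Several of its target genes encode its own subunits and inhibitors, which makes the pathway a feedback loop, and in the injured kidney NF-kB is known for driving chemokine and adhesion molecule genes in tubule cells and leukocytes.

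All 6 arrays carried the expected kidney markers, with Umod, the main transcript of the loop of Henle, at intensities from 27164 to 39076. The summed intensity of 9 measured tubule and glomerulus markers was 109100, 96380 and 75930 at 0, 45 and 60 min on day 1. On day 3 it was 116500, 117400 and 77960, so both 60 min arrays were the lowest. The arrays had median intensities of 81.4 to 95.3. RNA quality was read from beta-actin as the log2 ratio of 3′ over 5′ probe sets, which was 1.03 to 1.12 on 4 arrays but lower for 0 min (0.77) and 60 min (0.49) at day 3. The same ratio of Gapdh differed with the day, at -0.23 to -0.20 on day 1 and -0.37 to -0.33 on day 3. Its part in the comparisons between days was not tested. No combination had a second array, and the labels do not say how many animals an array stands for. The values of 2 single arrays therefore cannot be tested against each other, and neighbours in the orders given below cannot be told apart by a test. Intensities are on a linear scale, and differences are of log2(intensity + 16), which understates the change of dim genes. Because whole kidney was measured, more cells of a type and more RNA per cell cannot be told apart.

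Promoters of the measured genes are shown first, since binding of NF-kB to its own genes is what makes the loop. RefSeq promoter sequences of build GRCm38.p6 were at hand for 7 of the 10 genes, in 10 windows of 250 bases before an annotated transcript start. The kappaB consensus, the 10-base motif that NF-kB pairs recognise, was searched on both strands. It was found in 7 of these 10 windows and in 5 of the 7 genes (Nfkb2, Rel, Nfkbia, Nfkbie and Tnfaip3). Over all promoters of that length it was found in 3.9% of 32851 windows and in 4.46% of 27025 genes. A match is a description of letters and shows neither binding nor use. The windows of Rela and Bcl3 held no match, and no sequence is printed for Relb and Nfkbiz. The 4 windows below are given 5′ to 3′ on the strand of the gene, end at the base before the start, and carry the matches in capitals.
Nfkb2, chr19:46304487-46304736, plus strand: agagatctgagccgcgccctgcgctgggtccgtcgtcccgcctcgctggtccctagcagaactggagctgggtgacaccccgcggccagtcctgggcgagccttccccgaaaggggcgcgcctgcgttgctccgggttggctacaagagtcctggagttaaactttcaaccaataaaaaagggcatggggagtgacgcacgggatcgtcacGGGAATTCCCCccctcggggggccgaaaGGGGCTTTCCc
Nfkbia, chr12:55492648-55492897, minus strand: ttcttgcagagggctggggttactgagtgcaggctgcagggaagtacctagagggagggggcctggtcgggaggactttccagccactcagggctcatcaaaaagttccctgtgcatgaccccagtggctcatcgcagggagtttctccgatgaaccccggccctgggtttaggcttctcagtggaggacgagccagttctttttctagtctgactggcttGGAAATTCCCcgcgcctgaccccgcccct
Nfkbie, chr17:45555450-45555699, plus strand: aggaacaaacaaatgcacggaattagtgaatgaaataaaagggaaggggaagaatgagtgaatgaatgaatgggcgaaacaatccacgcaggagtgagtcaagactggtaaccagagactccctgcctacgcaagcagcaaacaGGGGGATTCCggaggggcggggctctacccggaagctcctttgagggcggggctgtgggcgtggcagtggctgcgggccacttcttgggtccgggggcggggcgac
Tnfaip3, chr10:19015411-19015660, minus strand: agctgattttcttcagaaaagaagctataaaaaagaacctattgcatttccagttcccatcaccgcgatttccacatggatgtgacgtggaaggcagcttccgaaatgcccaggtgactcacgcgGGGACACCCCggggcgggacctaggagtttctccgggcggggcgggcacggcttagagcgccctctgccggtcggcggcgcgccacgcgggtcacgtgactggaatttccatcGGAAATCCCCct
The Nfkbia match, GGAAATTCCC, lay 29 to 20 bases before the start. In Nfkb2 a match to both strands, GGGAATTCCCC, lay 39 to 29 bases before the start, and GGGGCTTTCC lay 11 to 2 bases before it. Tnfaip3 also had matches in a pair, 125 to 116 and 12 to 3 bases before this start, and none before its other start. The Nfkbie match, GGGGGATTCC, lay 106 to 97 bases before the start.

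**Figure D1:**
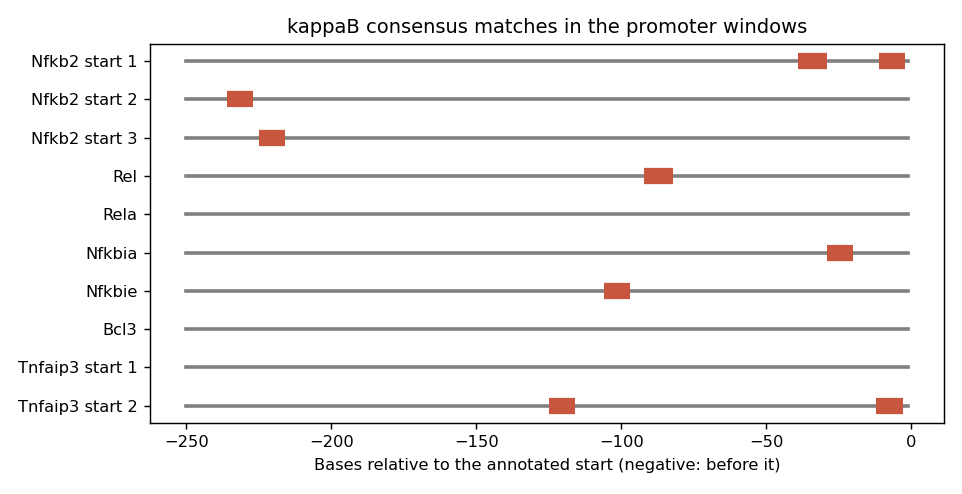
Matches to the kappaB consensus (red blocks) in the 10 promoter windows (grey lines), placed by bases before the annotated start, with several starts of a gene in order of coordinate. The matches of Nfkbia and the last matches of Nfkb2 start 1 and Tnfaip3 start 2 lay within 29 bases of the start, and Rela, Bcl3 and Tnfaip3 start 1 had none.

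Among the subunit genes, the pair of the noncanonical branch, Nfkb2 and Relb, stood higher in every clamped kidney than in either unclamped one. Nfkb2 encodes a precursor that is cut to yield an active subunit. Its intensity on day 1 was 145 at 0 min, 245 at 45 min and 340 at 60 min, and on day 3 it was 124, 263 and 524. On this probe set the groups did not overlap, and on each day the order followed the clamp time. On the other probe set of the gene the groups overlapped. The clamped kidneys exceeded the 0 min kidneys by 1.20 ± 0.20 (log2, SE of the limma fit, 4 clamped against 2 unclamped arrays, limma adjusted p = 0.173).

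Relb encodes the subunit that pairs with the Nfkb2 product and is itself an NF-kB target. Its intensity was 116, 145 and 266 at 0, 45 and 60 min on day 1 and 102, 199 and 366 on day 3. Again no clamped kidney fell within the range of the unclamped ones, although the 45 min day 1 kidney lay only 1.24 times above its 0 min partner. The difference between clamped and 0 min was 0.98 ± 0.18 (limma adjusted p = 0.186).

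Rela encodes the main activating subunit of the canonical branch, and its span was the smallest among the 8 tested genes. Its intensity was 1204, 1215 and 1768 on day 1 and 1078, 1385 and 1600 on day 3. The 45 min day 1 value was nearly that of its 0 min partner (1.01 times), so that the groups were separated by a narrow margin, and they overlapped after quantile normalization and after median centring. The clamped kidneys exceeded the others by 0.37 ± 0.14 (limma adjusted p = 0.342).

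Rel encodes the subunit that is most abundant in lymphoid cells. Its probe set was near background everywhere, at 9.69, 2.67 and 17.4 on day 1 and 5.52, 16.4 and 15.6 on day 3, and it lay below the filter. Values of that size, mostly under the added 16, give no order among the kidneys. Of 8 T and NK cell markers 1 passed the filter (Cd8a, 44.8 to 113). Among those below it, Cd4 lay between 5.52 and 11.4, Cd3g between 21.1 and 70.1 and Klrk1 between 26.3 and 70.4. Of 6 B and plasma cell markers 4 passed. Among these Jchain, a plasma cell gene, ranged from 137 to 4182. Below the filter, Cd79a lay between 1.52 and 11.1 and Pax5 between 1.86 and 41.0. The part of lymphocytes in the Rel values was not tested.

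**Figure D2:**
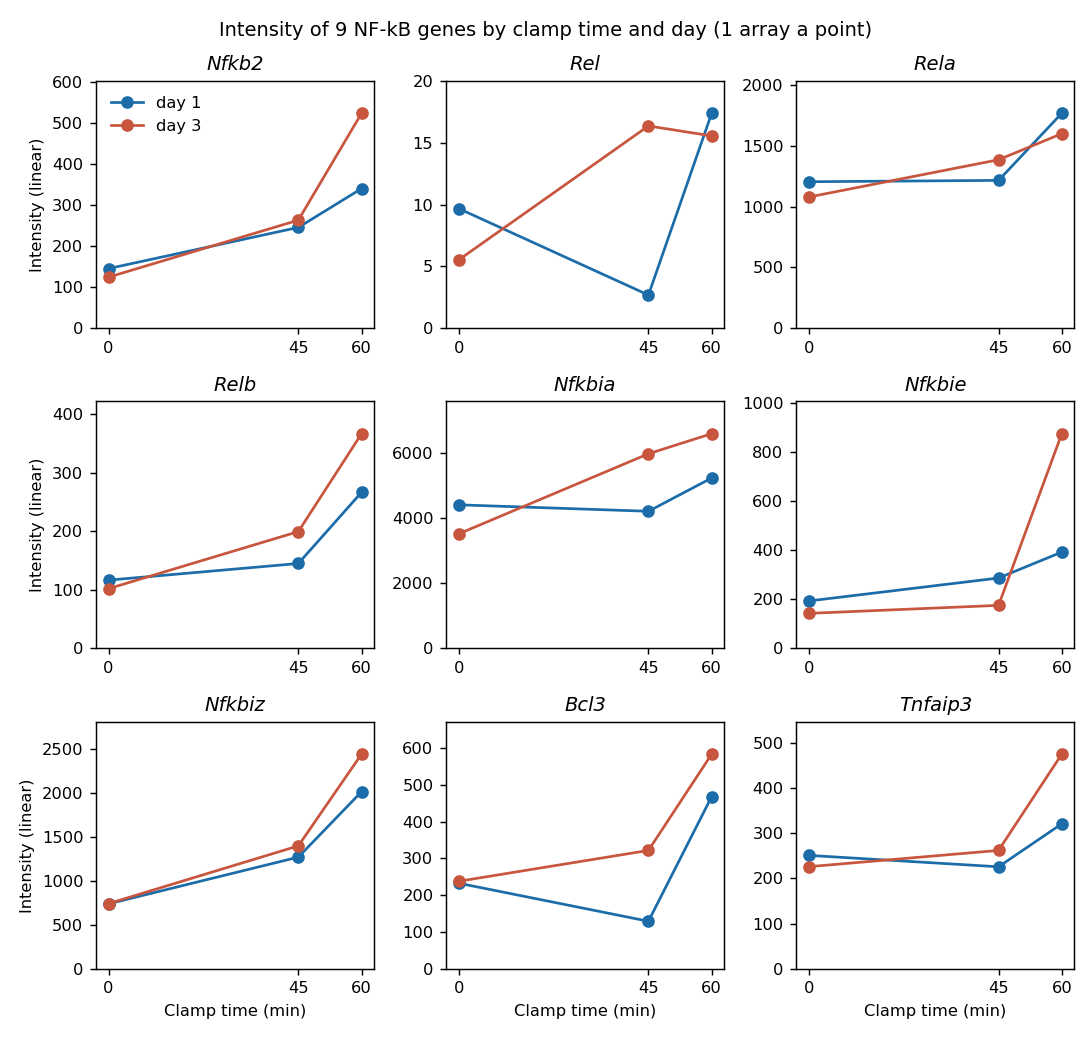
Intensity (linear scale, from 0) of the 9 genes with a probe set against clamp time, 1 array a point, with day 1 in blue and day 3 in red. The 60 min day 3 array was the highest for 7 of the 8 tested genes, and Rel never passed an intensity of 17.4.

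The inhibitors fell into those that followed the clamp on both days and those that did not at 45 min of day 1. Nfkbiz encodes an atypical nuclear IkB that acts as a coactivator at genes such as Lcn2. Its intensity was 738, 1269 and 2013 at 0, 45 and 60 min on day 1 and 741, 1397 and 2440 on day 3. The 0 min arrays were nearly equal, all clamped kidneys lay above them, and the days followed the same order. Nfkbiz had the largest clamped minus 0 min difference of the 8 genes, 1.20 ± 0.13, and their smallest adjusted p in that contrast (limma adjusted p = 0.131). It was the only 1 of the 8 to pass an adjusted p under 0.05 under any alternative tried. That happened with a robust variance trend (limma adjusted p = 0.0206, range over its 16 alternatives 0.0206 to 0.546).

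Nfkbie encodes IkB epsilon, a classical inhibitor whose resynthesis follows NF-kB activation with a delay. Its intensity was 193, 286 and 392 on day 1 and 142, 175 and 874 on day 3. The 60 min day 3 kidney stood apart from the other 5, at 6.13 times its 0 min partner, while the 45 min day 3 kidney (175) lay between the unclamped ones. The clamped minus 0 min difference was 1.07 ± 0.39 (limma adjusted p = 0.331). Without the 60 min day 3 array it was 0.65.

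Nfkbia encodes IkB alpha, the rapid feedback inhibitor. Its intensity was 4412, 4213 and 5237 at 0, 45 and 60 min on day 1 and 3519, 5981 and 6599 on day 3. On day 1 the 45 min kidney lay below the 0 min kidney, so the groups overlapped on this probe set. On day 3 both clamped kidneys lay above the 0 min kidney, by 0.76 and 0.90 (log2). The clamped minus 0 min difference was 0.46 ± 0.21 (limma adjusted p = 0.391). The choice of reference array decided its size, which came to 0.83 when the 0 min kidney of day 1 was left out and 0.09 when that of day 3 was.

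Bcl3 encodes another nuclear IkB, which can activate or repress with the subunit pairs it binds. Its intensity was 233, 129 and 468 on day 1 and 238, 322 and 583 on day 3. The 45 min day 1 kidney was the lowest of the 6, at 0.555 times its 0 min partner, and both 60 min kidneys were the highest. The clamped minus 0 min difference was therefore 0.46 ± 0.27 (limma adjusted p = 0.477), against 1.28 ± 0.31 for 60 minus 45 min (limma adjusted p = 0.312). The former was 0.83 without the 0 min day 1 kidney, 0.72 without the 45 min kidney of that day, 0.20 without the 45 min kidney of day 3 and 0.09 when the 0 min kidney of day 3 was left out. The latter was 0.76 without the 45 min kidney of day 1.

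Tnfaip3 encodes a ubiquitin-editing enzyme that shuts off signalling upstream of the IkB kinases. Its intensity was 251, 226 and 321 on day 1 and 226, 262 and 475 on day 3. As for Bcl3, the 45 min day 1 kidney was the lowest of the 6, by a narrow margin here, and the 60 min kidneys were the highest. The clamped minus 0 min difference was 0.35 ± 0.18 (limma adjusted p = 0.426). It was 0.61 without the 0 min kidney of day 1, 0.10 without that of day 3 and 0.23 without the 60 min kidney of day 3.

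Over the 8 tested genes, clamped kidneys were higher on average for 8 of 8, with differences from 0.35 (Tnfaip3) to 1.20 (Nfkbiz) and a median of 0.72, against a median of 0.01 over all 12734 genes. Limma called 0 of the 8 at an adjusted p under 0.05, where 0% of all genes were called. At an unadjusted p under 0.05 limma placed 5 of the 8 higher (Nfkb2, Nfkbie, Nfkbiz, Rela and Relb), beside 9.56% of all genes, and 0 lower, beside 5.03%. All 4 clamped arrays lay above both 0 min arrays for 4 of the 8 (Nfkb2, Rela, Relb and Nfkbiz), where 10.9% of all genes did so. That count was 7 without the 45 min day 1 array, where it took in Nfkbia, Bcl3 and Tnfaip3 and the share of all genes was 14.2%. It was 6 without the 0 min day 1 array (22.8% of all genes) and 5 without the 45 min kidney of day 3 (21.2%). It stayed at 4 when any of the other 3 arrays was left out, beside shares of 12.4% to 22.6%. It was 3 after quantile normalization (9.18%) or median centring (6.86%), when Rela overlapped, and 6 when the probe sets of a gene were averaged (10.9%).

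**Figure D3:**
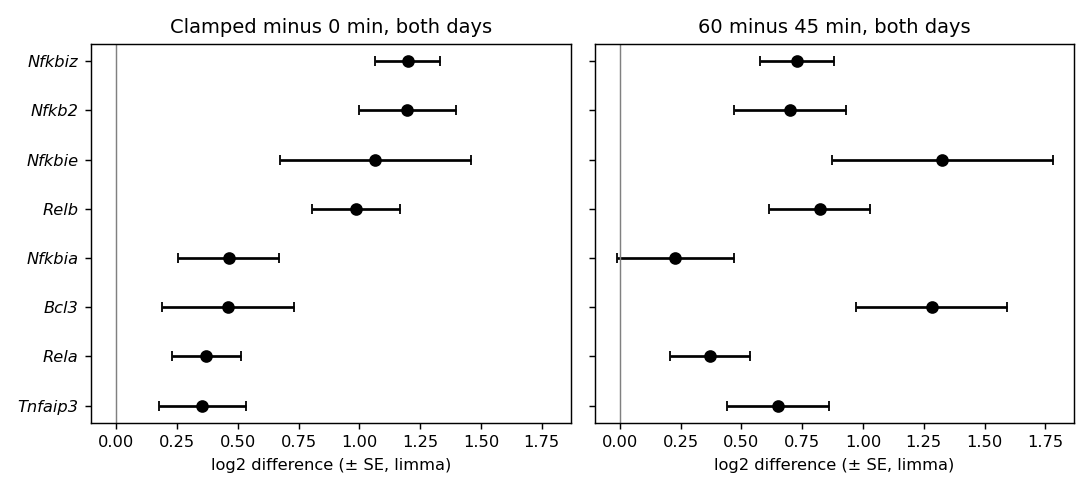
Log2 differences ± SE of the limma fit for the 8 tested genes, with clamped minus 0 min on the left (4 against 2 arrays) and 60 minus 45 min on the right (2 against 2 arrays). Nfkbiz and Nfkb2 lead on the left at 1.20, and Nfkbie (1.33) and Bcl3 (1.28) on the right.

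Against the single 0 min array of the same day, the number of genes at least 2-fold higher depended on the clamp time. At 45 min it was 0 of 8 on day 1 (3.57% of all genes) and 0 of 8 on day 3 (1.5%). At 60 min it was 3 of 8 on day 1 (Nfkb2, Nfkbiz and Relb, beside 4.39% of all genes) and 6 of 8 on day 3 (beside 7.58%), all but Rela and Nfkbia. By the plain ratio of intensities, Nfkb2 at 45 min of day 3 (2.12) also passed 2-fold. So did Nfkbie (2.03) and Bcl3 (2.01) at 60 min of day 1. The medians of the 8 genes were 0.15 and 0.96 at 45 and 60 min of day 1, and 0.59 and 1.47 on day 3. The medians over all genes in the same order were 0.02, 0.03, -0.03 and 0.04. These comparisons share their 0 min array within a day. None of the 8 was at least 2-fold lower in any of the 4, beside 1.06% and 1.71% of all genes at 45 and 60 min of day 1 and 0.785% and 2.32% on day 3.

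The second question is how 60 min compares with 45 min of clamping. On both days each of the 8 genes was higher at 60 than at 45 min, and 35.4% of all genes were so. The smallest differences were those of Nfkbia, 0.31 on day 1 and 0.14 on day 3. The largest were those of Bcl3 on day 1, 1.74, and of Nfkbie on day 3, 2.22, which were also the only ones of at least 2-fold (1.02% of all genes on day 1 and 5.96% on day 3). In the fit over both days the differences ran from 0.23 ± 0.24 for Nfkbia to 1.33 ± 0.45 for Nfkbie, with Relb at 0.82 ± 0.21, Nfkbiz at 0.73 ± 0.15, Nfkb2 at 0.70 ± 0.23, Tnfaip3 at 0.65 ± 0.21 and Rela at 0.37 ± 0.16. Their median was 0.71, against 0.05 over all genes, and 0.47 without the 60 min day 3 array. Without that array Nfkbie came to 0.50, Nfkb2 to 0.37 and Tnfaip3 to 0.39. Leaving out the 45 min kidney of day 1 gave 0.20 for Rela and -0.023 for Nfkbia. Nfkbie came to 2.15 without the 60 min kidney of day 1 and 0.81 without the 45 min kidney of day 3, while Nfkbia came to 0.35 and 0.48 and without the 60 min kidney of day 3 to 0.11.

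Limma called 0 of the 8 in this contrast (adjusted p from 0.306 for Nfkbiz to 0.697 for Nfkbia), with 0% of all genes called. At an unadjusted p under 0.05 limma placed 6 of the 8 higher, beside 7.76% of all genes, all but Rela and Nfkbia, and 0 lower, beside 5.29%. An order of 60 above 45 above 0 min on both days was seen for 5 of the 8 (Nfkb2, Relb, Rela, Nfkbie and Nfkbiz), beside 9.57% of all genes.

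The third question is how the days compare. In unclamped kidneys 2 of the 8 genes (Bcl3 and Nfkbiz) were higher on day 3 than on day 1, beside 49.9% of all genes, and differences ran from -0.40 for Nfkbie to 0.03 for Bcl3. At 45 min 7 of 8 were higher on day 3 (41.3% of all genes), with Bcl3, the only one at least 2-fold higher (1.19% of all genes), at 1.22 and Nfkbie the exception at -0.66. At 60 min 7 of 8 were higher on day 3 (50.4% of all genes), with Nfkbie, again the only one at least 2-fold higher (3.01% of all genes), at 1.13 and Rela the exception at -0.14. This probe set of Nfkbie thus differed between days in opposite directions at 45 and 60 min, whereas the other probe set of the gene was higher on day 3 at both (0.67 and 0.74).

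With the 45 and 60 min arrays of a day as 1 group, day 3 exceeded day 1 by 0.02 ± 0.25 (Rela) to 0.76 ± 0.64 (Bcl3), with a median of 0.36. Single arrays decided that median. Leaving out the day 3 kidneys clamped for 60 or 45 min gave -0.06 and 0.80, and leaving out those of day 1 gave 0.57 and 0.02. The p-values of this fit rest on the spread between the 45 and 60 min kidneys of a day. Limma called 0 of 8 genes at an adjusted p under 0.05 (smallest adjusted p = 0.997, 0% of all genes called) and placed 0 of 8 at an unadjusted p under 0.05 (1.75% of all genes higher and 2.35% lower). The interaction, the change of the clamp effect from day 1 to day 3, had a median of 0.57 over the 8 genes. The median over all genes was -0.025. This change includes the day difference of the 0 min kidneys, whose median over the 8 genes was -0.16. The median of 0.57 became 0.09 without the 60 min kidney of day 3 and 0.23 without the 45 min kidney of day 1. Without 60 min day 1 it was 0.81, and without 45 min day 3 it was 0.97. The interaction ran from 0.18 ± 0.43 for Rela to 0.74 ± 0.35 for Nfkbia. Limma called 0 of these 8 differences at an adjusted p under 0.05, with 0% of all genes called, and placed 0 at an unadjusted p under 0.05, beside 1.18% of all genes higher and 1.04% lower.

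Probe sets of the same gene did not always follow each other. The 9 genes had 18 single-symbol probe sets, and 5 genes had more than 1. For Nfkbiz the other probe sets were also higher in all clamped kidneys, 1 with 184, 328 and 531 on day 1 and 198, 459 and 688 on day 3. The dimmest read 191, 216 and 324 on day 1 and 96.7, 225 and 254 on day 3. On that probe set the 0 min kidneys were not alike, and 60 min day 1 was the highest. For Nfkbia, 4 of 5 probe sets were higher on day 3 by 0.73 to 1.08 at 45 min and by 0.90 to 1.23 at 60 min, and the dimmest kept between 146 and 167 on all arrays. On 1 of the 5, not the one used, all clamped kidneys lay above both 0 min kidneys. The margin there was narrow at 45 min of day 1 (2161 against 2061). The other Nfkb2 probe set, whose name marks possible cross-hybridisation, read 172, 122 and 182 on day 1 and 169, 201 and 237 on day 3. On it clamped exceeded 0 min by only 0.08, and the groups overlapped, with the 45 min day 1 kidney the lowest. The other Nfkbie probe set was 110, 72.2 and 136 on day 1 and 124, 124 and 237 on day 3. It shared the high 60 min day 3 value but not the height of the probe set used, and its 45 min kidneys did not lie above the 0 min ones (-0.52 and 0.003). The other Tnfaip3 probe set was dim, with 25.7, 16.3 and 33.8 on day 1 and 43.3, 43.5 and 65.4 on day 3. Its clamped minus 0 min difference was 0.09. The size of the Nfkb2, Nfkbie and Tnfaip3 differences thus depended on the probe set, as did the separation of the Nfkb2 and Nfkbia groups. When all probe sets of a gene were averaged, clamped exceeded 0 min by 0.64 for Nfkb2 and 0.61 for Nfkbie. The groups of Nfkbia and Nfkbie then did not overlap.

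**Figure D4:**
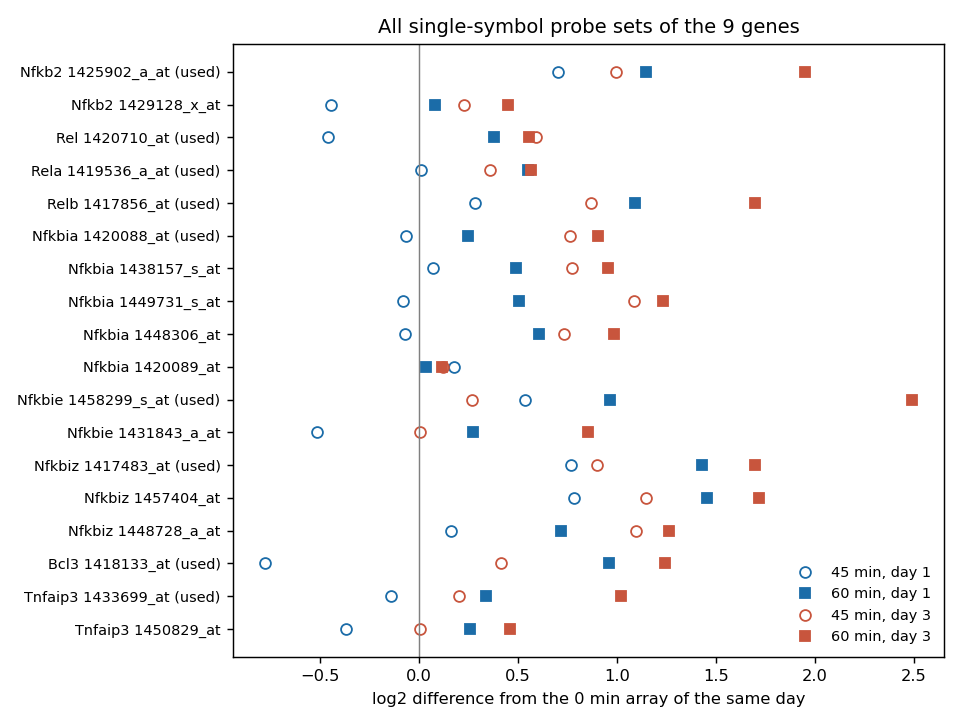
Log2 difference of each clamped array from the 0 min array of the same day for all 18 probe sets of the 9 genes, with open circles for 45 min, squares for 60 min, blue for day 1 and red for day 3. Nfkbiz probe sets lie to the right of 0 throughout, while 45 min day 1 lies left of 0 for Bcl3 (-0.78) and for probe sets of Nfkb2, Nfkbie, Nfkbia, Rel and Tnfaip3.

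Most of the rest of the pathway had smaller median differences. Of 19 measured receptor adaptors and upstream kinases, which relay signals from TNF and Toll-like receptors to the IkB kinases, 11 were higher on average in clamped kidneys. Their median was 0.03, and limma called 0 at an adjusted p under 0.05 (0% of all genes). At an unadjusted p under 0.05 limma placed 1 higher (9.56% of all genes) and 0 lower (5.03%). By the size of the difference the list was led by the kinase gene Map3k8 (0.67 ± 0.19) and by Irak3, an inhibitor of Toll-like receptor signalling (0.47 ± 0.28). They were followed by Irak2 (-0.35 ± 0.22) and Bcl10 (0.27 ± 0.14). The other Irak3 probe set, at intensities of 11.4 to 37.9, read -0.293, and those of Bcl10 read -0.164, 0.158 and 0.275. For Traf1, an adaptor gene and NF-kB target chosen for mention after its values were seen, a probe set read 0.04 and another 1.16 (log2, clamped minus 0 min).

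Of 4 measured IkB kinase genes, 3 were higher on average. Ikbke, a kinase gene inducible by NF-kB, had 60.7, 50.7 and 116 on day 1 and 70.4, 69.9 and 191 on day 3. Its high values were thus those of the 60 min kidneys. Ikbkb, the main catalytic kinase gene, differed by 0.40 ± 0.15, Tbk1 by 0.07 ± 0.14 and Ikbkg by -0.05 ± 0.14 between clamped and 0 min kidneys. Other probe sets read 0.088 to 0.393 for Ikbkg and -0.08 to 0.546 for Ikbkb, so direction depended on the probe set. The list median was 0.23, and limma called 0 and placed 2 higher at an unadjusted p under 0.05 (9.56% of all genes).

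Of 17 other IkB proteins and ubiquitin regulators, 10 were higher, with a median of 0.04 and 0 called by limma. At an unadjusted p under 0.05 limma placed 1 higher, beside 9.56% of all genes. That gene was Birc3, an NF-kB target encoding a ubiquitin ligase, at 0.59 ± 0.19. Nfkbid, an atypical IkB gene, differed by 0.49 ± 0.32, Rnf11 by -0.30 ± 0.17 and Tnip1, for a partner of the Tnfaip3 product, by 0.21 ± 0.18. Of 26 measured target genes outside the pathway 22 passed the filter, and 20 of these were higher, with a median of 0.72 and 0 called by limma. At an unadjusted p under 0.05 limma placed 14 higher (9.56% of all genes) and 0 lower (5.03%). The target genes lower on average were Sod2 (-0.303 ± 0.123) and Cfb (-0.255 ± 0.126). The chemokine genes Cxcl1 (2.47 ± 0.54) and Cxcl2 (2.37 ± 0.29) and Lcn2 (2.29 ± 0.19) were among those with the largest differences. The chemokine gene Ccl20 read 5.73 and 5.57 at 0 min, below the added 16, and 89.8 to 317 when clamped, so that the size of its difference is not measured. The median of this list was thus like that of the 8 subunit and inhibitor genes (0.72), and those of the adaptors and of the other IkB and ubiquitin regulators lay near that of all genes.

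General leukocyte and macrophage markers were also higher on average in clamped kidneys (medians of 0.85 and 0.84). They did not follow the NF-kB genes on every array. From day 1 to day 3 at 0 min their medians were 0.52 and 0.55, against -0.16 for the 8 NF-kB genes. The summed intensity of 6 general leukocyte markers, all past the filter, was 1749 and 2640 on the 0 min arrays and 2634 to 8803 on the clamped ones, and no marker was at 0. That of 11 measured monocyte and macrophage markers was 5742 and 9899 at 0 min and 9463 to 34670 when clamped. The top of both ranges was the 60 min day 3 kidney, which was also the highest for all of the 8 NF-kB genes but Rela (26.5% of all genes). That array also had the lowest beta-actin ratio (0.49), which is the least excess of 3′ over 5′ signal. Its Gapdh ratio (-0.37, log2 of 3′ over 5′) was the same as on the 0 min day 3 array. Tubule and glomerulus markers were lower, with a median of -0.31 for clamped minus 0 min (0 of 9 higher). For 60 minus 45 min their median was -0.42 (1 of 9 higher). The part of leukocytes, of tubule cells or of RNA quality in the NF-kB values was not tested.

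Between the 60 and 45 min kidneys of day 1 the leukocyte lists differed unevenly. General leukocyte markers summed to 2750 and 2634, and their median log2 difference was 0.04. It was -0.13 for monocyte and macrophage markers, although Cd14 (2719 against 1283) and Ccr2 (137 against 62.2) in that list were higher at 60 min. It was 0.34 over the 4 neutrophil markers and 0.57 over the 2 dendritic cell markers past the filter. Between these kidneys the 8 NF-kB genes differed by a median of 0.51, all in the direction of 60 min (50.9% of all genes). On day 3 the medians were 1.35 for general leukocyte, 1.33 for monocyte and macrophage, -0.12 for neutrophil and 0.54 for dendritic cell markers and 0.82 for the 8 NF-kB genes. Neutrophil markers summed to 1014 and 1092 at 0 min and to 1103 to 1634 when clamped, with 4 of 7 past the filter. Dendritic cell markers, of which 2 of 5 passed, summed to 309 and 358 at 0 min and to 331 to 494 when clamped. B and plasma cell markers summed to 2884 and 4500 at 0 min and to 363 to 3259 when clamped. T and NK cell markers summed to 308 and 355 against 234 to 375, and those of endothelium to 5346 and 5910 against 5589 to 6376.

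**Figure D5:**
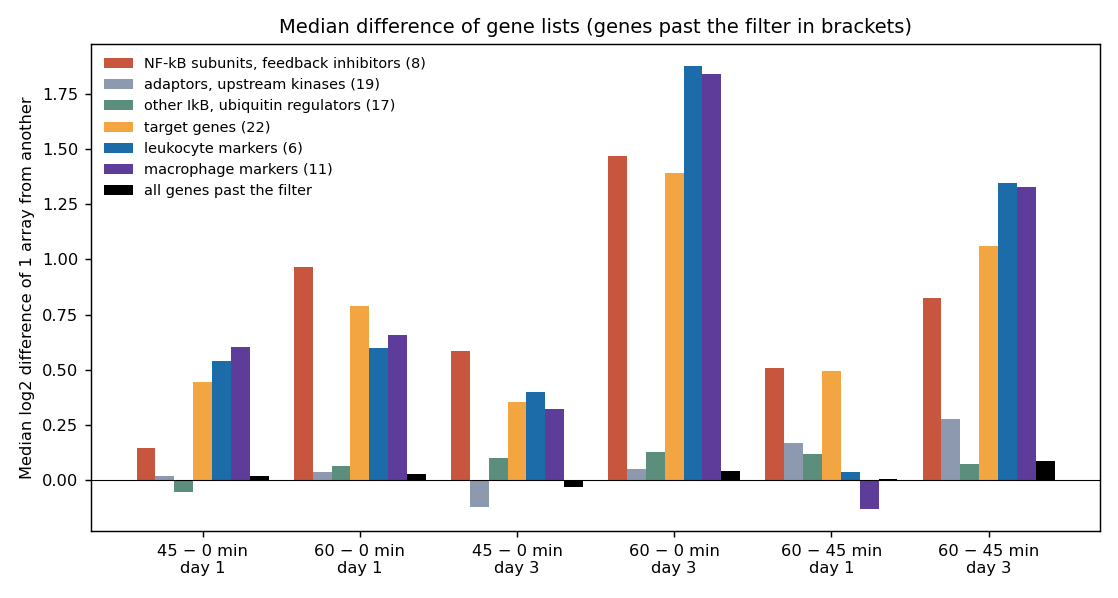
Median log2 difference of 1 array from another for the 8 NF-kB genes, 3 other groups of the pathway and its targets, 2 sets of leukocyte markers and all genes, in 6 single-array comparisons. At 60 minus 45 min of day 1 the NF-kB genes stood at 0.51 and the target genes at 0.50, general leukocyte and macrophage markers at 0.04 and -0.13, and neutrophil and dendritic cell markers, which are not drawn, at 0.34 and 0.57. On day 3 these medians were, in the same order, 0.82, 1.06, 1.35, 1.33, -0.12 and 0.54.

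Profiles like those of the NF-kB genes were sought among 12187 tested genes with established names, by the root mean square difference of log2 values over the 6 arrays after centring each gene. For Nfkb2 the nearest were Robo1 (0.037), a guidance receptor gene, and Klf5 (0.082), a transcription factor gene. Klf5 went from 160 through 256 to 367 with the clamp time on day 1 and from 135 through 319 to 521 on day 3. Nfkbiz had Robo1 (0.086) and the tropomyosin gene Tpm4 (0.101) nearest, and Nfkb2 and Nfkbiz were each other's nearest within the NF-kB set (0.112). For Relb the nearest were Ch25h and the AP-1 gene Fosl2, both at 0.074.

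Nfkbie, Bcl3 and Tnfaip3 had other neighbours. For Nfkbie the nearest were Cx3cr1 (0.193), the fractalkine receptor gene of monocytes and macrophages, and Nrm (0.206). Cx3cr1 had 128, 217 and 209 on day 1 and 114, 131 and 563 on day 3, with the 60 min day 3 kidney standing apart as for Nfkbie. For Bcl3 they were Sh3pxd2b (0.179) and Rcan1 (0.182), and Rcan1 shared the low 45 min day 1 value, with 2193, 1500 and 3433 on day 1 and 2260, 2504 and 5024 on day 3. For Tnfaip3 they were Arrb2 (0.063) and Grk5 (0.074). Likeness over 6 arrays is a description and rests on the same libraries for every gene.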

How the data were processed

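The authors deposited 1 table of intensities on a linear scale, with a value for each of 45101 probe sets on 6 arrays. Affymetrix Expression Console is named per the submitters' processing notes, with no version. How probes were summarised is not given in the sources used here. RNA was extracted with Trizol and labelled with a 3′ IVT kit, per the labels' protocols. The mean of each array after trimming 2% at both ends was 500.003, so the deposited intensities had been scaled to a common target. Such scaling can shift other genes when many bright ones differ.

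Probe sets with 1 symbol (34945) were used, and those with several (932) or none (9160) were not. The probe set of highest mean intensity stood for its gene. Genes were kept when mean log2(intensity + 16) reached the 40th percentile of non-control probe sets (6.01). Contrasts were fitted in R 4.3.3 with limma 3.58.1 (lmFit and eBayes), and p-values were adjusted by Benjamini-Hochberg over 12734 genes. Clamped against 0 min and 60 against 45 min came from clamp time plus day. Contrasts between days came from 4 cells (0 min or clamped, by day). Each fit had 2 residual degrees of freedom, so p-values measure the spread around the model and not a spread between replicate arrays. In the fit of clamp time plus day, that spread was the change of clamp differences between days. In the fit of 4 cells it was the difference between the 45 and 60 min kidneys of a day. Other differences were of 1 array from another, with a 2-fold limit and no p-value. The number of arrays limits the precision.

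The genes and lists were chosen with earlier results of these data known. All 10 genes were named, with up to 4 genes of each pathway list by size of the clamped minus 0 min difference, and the 2 nearest profiles for genes spanning over 1 (log2). Alternatives were quantile normalization, median centring, pseudocounts of 1 and 64, no filter or the 60th percentile, other probe set rules, leaving out each array, clamping as 2 levels, and a robust variance trend.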

Additional observations from a re-analysis of the deposited data

How the results depend on the processing

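Limma called 0 genes in each of the 4 contrasts, and this count for clamped against 0 min was 1 after median centring and 75 with a robust variance trend. With 1 array left out it ran from 0 to 200, the latter without the 45 min day 3 array, and none of the 8 NF-kB genes was among the 200. The number of NF-kB genes whose groups did not overlap ran from 4 to 7 with 1 array left out, beside 12.4% to 22.8% of all genes. The number at least 2-fold higher at 60 min of day 1 (3) was 5 with a pseudocount of 1 and 1 with 64. At 45 min of day 3 (0) it was 1 with a pseudocount of 1 or the mean of probe sets. For day 3 against day 1 (1 each) it was 0 at 45 min with a pseudocount of 64 and 0 at 60 min with the mean of probe sets. The share of all genes at least 2-fold higher was not computed under these alternatives. Clamped minus 0 min kept its sign for all 8 genes under each alternative run. For 60 minus 45 min, Nfkbia ran from -0.023 (without 45 min day 1) to 0.48 with 1 array left out. For day 3 minus day 1 in clamped kidneys the ranges were -0.25 to 0.29 for Rela, -0.10 to 1.63 for Bcl3, -0.19 to 0.61 for Nfkbiz, -0.13 to 0.82 for Nfkb2, -0.88 to 1.34 for Nfkbie and -0.038 to 0.78 for Tnfaip3. The negative values came without 45 min day 1 for Bcl3, without 60 min day 3 for Nfkb2, Nfkbie and Tnfaip3, and without either for Nfkbiz (-0.12 and -0.19) and Rela (-0.25 and -0.08). The causes were not tested. Day was a term of the clamp fits, so clamp times were compared within days, and the labels give no replicate numbers for a further block. The change of the clamp effect could not be fitted without either 0 min array. Rel and other probe sets near background have no reliable order.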
